A study of Mus musculus with 12 samples.

Results

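Dcn, Lum, Pdgfra and Cxcl12 are genes that connective tissue fibroblasts are known to express, and they were followed here on 12 arrays of mouse melanoma tumours. They were chosen by name as fibroblast genes whose levels on these arrays had been seen, each at the probe set selected on the highest mean over the 12 arrays, and make 4 of the 909 genes that the array's probe sets could be matched to. The 4 groups of 3 arrays were tumours of the Tm1N3 line, which the labels call galectin-3 expressing, and of the Tm1G3 line, called galectin-3 silenced, each grown in wild-type mice and in Gal3 -/- mice. Both lines are melanoma lines; the series' design text describes a line with silenced galectin-3 that was then used with a plasmid coding for galectin-3. The sources used here give neither the age of the mice nor the time of growth. Values are log2 expression levels from RMA, so that a difference of 1 is a doubling.

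Fibroblasts of a tumour's stroma lay down and organise its collagen matrix. Decorin (Dcn) and lumican (Lum) are small leucine-rich proteoglycans that bind collagen fibrils and set their spacing; decorin carries a chondroitin or dermatan sulfate chain and also binds TGF-beta, and lumican can carry keratan sulfate. Pdgfra encodes the alpha receptor for platelet-derived growth factors, by which fibroblasts are driven to grow and move. Cxcl12 encodes a chemokine that stromal and endothelial cells secrete and that draws cells with the receptor CXCR4.

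Dcn and Lum are next to each other among the protein-coding genes of chromosome 10 in the RefSeq gene table, with Kera, another gene of the same proteoglycan family, on the other side of Lum. Pdgfra lies on chromosome 5 beside Kit, and Cxcl12 on chromosome 6. The RefSeq promoter table (build GRCm38.p6) matched 2 of the 4 members. The 250 bases before the start of each of these genes are shown because both carry a gene whose level is followed below, and because they differ in base composition. Capitals mark GC boxes.
Pdgfra, chr5:75152001-75152250, plus strand: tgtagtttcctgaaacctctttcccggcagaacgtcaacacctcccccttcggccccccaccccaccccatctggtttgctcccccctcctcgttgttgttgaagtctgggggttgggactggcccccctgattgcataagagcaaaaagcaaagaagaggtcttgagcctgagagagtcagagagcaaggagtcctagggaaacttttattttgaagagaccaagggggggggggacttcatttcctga
Cxcl12, chr6:117168285-117168534, plus strand: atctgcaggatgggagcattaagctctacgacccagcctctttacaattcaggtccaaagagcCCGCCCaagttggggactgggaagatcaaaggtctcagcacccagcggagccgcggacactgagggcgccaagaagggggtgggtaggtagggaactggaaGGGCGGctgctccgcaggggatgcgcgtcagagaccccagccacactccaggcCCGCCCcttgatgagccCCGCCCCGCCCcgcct
The TATA box (TATAAA), the GC box (GGGCGG) and the CCAAT box (CCAAT) were searched on both strands. The Cxcl12 window held 5 GC box matches, 2 of which overlap, and the Pdgfra window none. Of all 32851 windows of this length in the table, 32.7% held a GC box. Neither window held the TATA box, found in 12.4% of all windows, or the CCAAT box, found in 33.8%. G and C made up 64.4% of the Cxcl12 window and 54.4% of the Pdgfra window. A match is only a run of letters, and the arrays measured no binding.

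The 12 arrays had near-equal medians, within 0.0945 of each other, and no pair held identical values. Lgals3, the gene of galectin-3, stood between 9.31 ± 0.43 in Tm1G3 tumours of knockout hosts and 9.97 ± 0.37 in Tm1N3 tumours of wild-type hosts (SD, n = 3), so these values do not separate the groups, and the sources used here do not say whether the probe set lies inside the deleted or silenced part. Each direction below by line or host therefore rests on the labels alone. Of the 12 melanocyte and melanoma markers listed, Kit and Mcam were measured, and Mcam stood at the 93.6 percentile of mean level. The replicate 3 arrays of Tm1N3 tumours, in both hosts, stand apart from the other arrays of their groups in Dcn, Lum and Pdgfra. They do so in some, but not most, of the gene lists that follow. The labels do not say that replicates came from separate animals, so the p-values speak only of the spread among these samples, which may be technical. In bulk tumour RNA, fewer fibroblasts and less RNA per fibroblast cannot be told apart, and the cells that gave each signal are not known.

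Decorin divided the Tm1N3 tumours into low and high arrays, with the Tm1G3 tumours between them. In Tm1N3 tumours of wild-type hosts the Dcn arrays read 8.09, 8.23 and 9.91, for replicates 1, 2 and 3. In Tm1N3 tumours of knockout hosts they read 7.47, 7.89 and 9.86. Both groups thus held a pair of low arrays and replicate 3 far above it, and these replicate 3 arrays were the highest Dcn levels of the series. Tm1G3 tumours read 9.56, 8.52 and 9.59 in wild-type hosts and 9.65, 8.37 and 8.80 in knockout hosts, inside the range of the Tm1N3 arrays. The probe set's suffix says that its probes are not unique to 1 transcript, so its signal may hold related ones.

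Lumican followed the same order at the top and the bottom. Its Tm1N3 arrays read 6.29, 6.26 and 7.72 in wild-type hosts and 5.33, 5.70 and 7.57 in knockout hosts. Its Tm1G3 arrays read 6.33, 6.28 and 6.83 in wild-type hosts and 7.04, 5.83 and 6.57 in knockout hosts. As for Dcn, replicate 3 of each Tm1N3 group was above every Tm1G3 array, while replicates 1 and 2 of the knockout group were below every other array of the series.

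Pdgfra, the growth factor receptor of the set, read 6.16, 6.39 and 7.43 for Tm1N3 in wild-type hosts and 5.61, 6.33 and 7.96 in knockout hosts. In Tm1G3 tumours it read 6.97, 6.27 and 7.14 in wild-type hosts and 6.55, 6.21 and 6.41 in knockout hosts. The lowest and the highest Pdgfra level were both in the Tm1N3 knockout group, a 5.10-fold span within 1 group, whereas the Tm1G3 knockout arrays spanned 1.26-fold.

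Cxcl12 behaved otherwise. At its brightest probe set, named for transcript NM_001012477, the levels were 7.14, 6.58 and 6.90 for Tm1N3 in wild-type hosts and 6.56, 6.71 and 7.14 in knockout hosts. Tm1G3 tumours read 7.68, 6.73 and 6.63 in wild-type hosts and 8.12, 7.55 and 7.18 in knockout hosts. Here the highest arrays were the Tm1G3 replicate 1 arrays of both hosts, and replicate 3 of the Tm1N3 tumours did not stand out in wild-type hosts. The array has another Cxcl12 probe set, named for NM_021704, with a mean of 6.72 against 7.08 for the brightest. It read 6.48, 6.27 and 7.89 for Tm1N3 in wild-type hosts and 5.17, 5.58 and 7.81 in knockout hosts, with the high replicate 3 of Dcn, Lum and Pdgfra. In Tm1G3 tumours it read 8.09, 6.27 and 7.42 in wild-type hosts and 6.70, 6.50 and 6.49 in knockout hosts. The gene table lists 3 RefSeq transcripts of Cxcl12, and the sources used here do not say which of them each probe set detects.

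**Figure D1:**
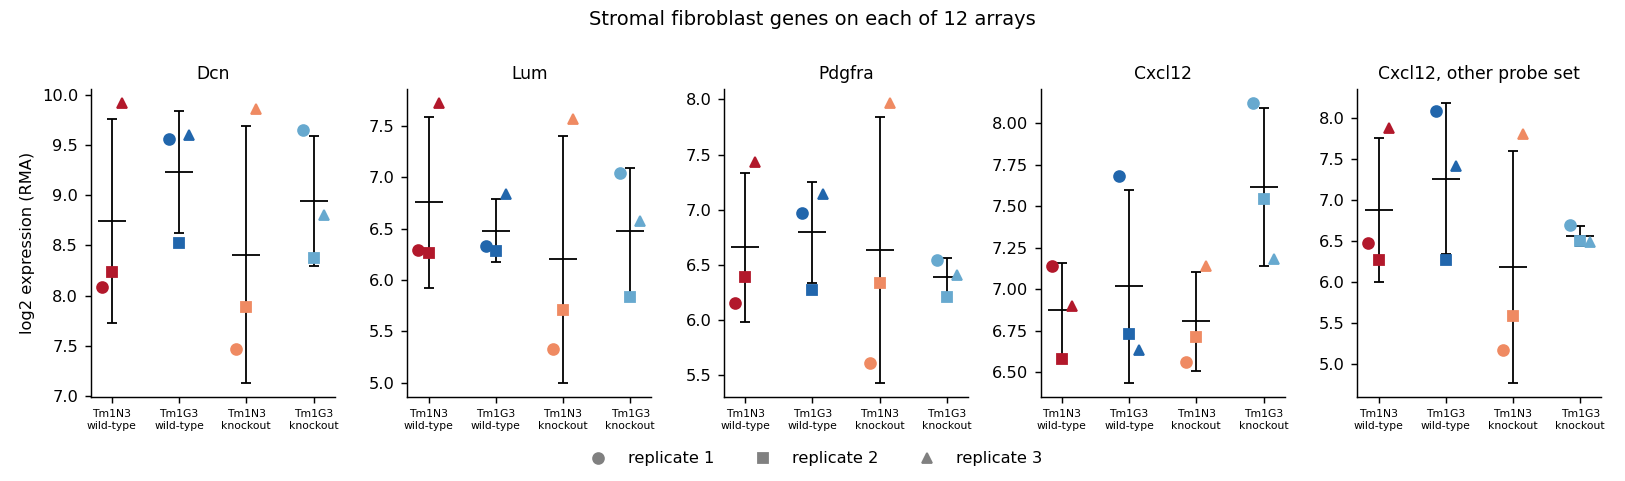
Log2 expression (RMA) of Dcn, Lum, Pdgfra and both Cxcl12 probe sets on each array, by tumour line and host; points are arrays, with the symbol giving the replicate, and bars are the group mean and SD (n = 3). Within each Tm1N3 group Dcn, Lum, Pdgfra and the other Cxcl12 probe set are highest in replicate 3 (9.91 and 9.86 for Dcn), while the brightest Cxcl12 probe set peaks at 8.12 in a Tm1G3 tumour.

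The spread inside groups was the main feature of these genes. The SD within groups was 0.93 for Dcn, 0.81 for Lum and 0.73 for Pdgfra, against a median of 0.12 over all 1246 probe sets, which places them at ranks 10, 18 and 24. It was 0.43 for the brightest Cxcl12 probe set, rank 71, and 0.95 for the other, rank 8. Over the 12 arrays Dcn spanned 5.43-fold, Lum 5.25-fold, Pdgfra 5.10-fold, and Cxcl12 2.94-fold at the brightest and 7.58-fold at the other probe set. Of the variance of Dcn 86.6% lay within groups, of Lum 91.8% and of Pdgfra 94.4%. For the brightest Cxcl12 probe set the share within groups was 54.4%, with 25.3% between tumour lines, 7.87% between hosts and 12.4% in their interaction; the median share within groups over all probe sets was 70.6%.

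The comparison of Tm1N3 with Tm1G3 tumours asks what the tumour line changes. None of the 4 genes passed an adjusted p of 0.05 averaged over hosts (limma, Benjamini-Hochberg over 1246 probe sets), where 4.25% of all probe sets did, 1.28% higher and 2.97% lower in Tm1N3. None had an unadjusted p under 0.05 (16.4% of probe sets) or groups that did not overlap (3.29%). The Dcn mean was lower in Tm1N3 tumours by a log2 difference of -0.51 ± 0.47 (SE), with a 95% interval from -1.55 to 0.54 (limma adjusted p = 0.717; exact permutation within hosts, two-sided, p = 0.345, where 0.005 is the smallest possible). Lum differed by -0.0021 ± 0.41 (interval -0.91 to 0.91) and Pdgfra by 0.06 ± 0.37 (-0.77 to 0.88). The Cxcl12 difference was -0.48 ± 0.22 at the brightest probe set (-0.96 to 0.01, limma adjusted p = 0.318, exact permutation p = 0.105) and -0.38 ± 0.48 at the other. These intervals still allow changes of about 1 or more on the log2 scale for Dcn and for the other Cxcl12 probe set. Those of Lum, Pdgfra and the brightest Cxcl12 probe set reach 0.91, 0.88 and -0.96. Changes of such sizes could have gone undetected on these arrays. Leaving out 1 array moved the Dcn difference to between -0.87 (without KO_Tm1N3 replicate 3) and -0.27 (without KO_Tm1N3 replicate 1), and it was -0.80 without WT_Tm1N3 replicate 3. Without both Tm1N3 replicate 3 arrays, an alternative chosen after seeing the data, it was -1.16 ± 0.29 (SE; limma adjusted p = 0.0679, the lowest over its alternatives, which reached 0.896). That of Lum was then -0.58 ± 0.22 (limma adjusted p = 0.200) and that of Pdgfra -0.47 ± 0.20 (0.249), and none passed. The arrays left out held the highest levels of these genes in the series, so their removal lowers the Tm1N3 means by design.

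Within wild-type hosts 0 of 4 passed, against 0.883% of all probe sets (0.401% higher, 0.482% lower), and 0 had an unadjusted p under 0.05, against 13.1%. Dcn stood at 8.74 ± 1.02 in Tm1N3 and 9.23 ± 0.61 in Tm1G3 tumours (SD, n = 3 each), and Lum at 6.76 ± 0.83 and 6.48 ± 0.31. Without replicate 3 of the wild-type Tm1N3 tumours the Dcn difference went from -0.48 to -1.07 (without their replicate 1, to -0.16) and the Lum difference turned from 0.28 to -0.20. The Pdgfra difference of -0.13 turned to 0.038, 0.12 and 0.00046 without WT_Tm1G3 replicate 3, WT_Tm1N3 replicate 1 and WT_Tm1N3 replicate 2. That of Cxcl12, -0.14, turned to 0.19 without WT_Tm1G3 replicate 1 and to 0.0042 without WT_Tm1N3 replicate 2. For all 4 genes the groups overlapped, as they did for all but 16.9% of probe sets.

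Within knockout hosts 0 of 4 passed either, against 0.722% (0.161% higher, 0.562% lower), and 1, Cxcl12, had an unadjusted p under 0.05, against 9.47%. Its 3 Tm1N3 arrays, between 6.56 and 7.14, lay below its 3 Tm1G3 arrays, between 7.18 and 8.12. The group means were 6.81 ± 0.30 and 7.62 ± 0.47 (SD, n = 3 each), a log2 difference of -0.81 ± 0.31 (SE; limma adjusted p = 0.371; exact permutation p = 0.1, the smallest that 3 against 3 arrays allow). Groups that do not overlap were found for 13.7% of all probe sets in this comparison. At the other Cxcl12 probe set the groups overlapped, with a difference of -0.38 ± 0.69. The Dcn difference was -0.53 ± 0.67, that of Lum -0.28 ± 0.58 and that of Pdgfra 0.25 ± 0.53. The Dcn difference was -1.26 without KO_Tm1N3 replicate 3 and -0.065 without KO_Tm1N3 replicate 1. Without KO_Tm1N3 replicate 3 the Lum difference was -0.97 and the Pdgfra difference turned to -0.42, and without KO_Tm1N3 replicate 1 the Lum difference turned to 0.16.

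Knockout and wild-type hosts differ by label in whether the host's own cells can make galectin-3. In limma 0 of 1246 probe sets passed in either line or averaged over lines, that is 0%, and 0 of 4 members. An unadjusted p under 0.05 was found for 54 probe sets in Tm1N3 (4.33%), 77 in Tm1G3 (6.18%) and 78 averaged (6.26%), and for none of the 4 genes. Their host groups overlapped in each comparison, as those of all but 7.62% of probe sets did in Tm1N3, 12.4% in Tm1G3 and 0.562% averaged. Within same-numbered pairs of arrays, which deviated together within a line, knockout minus wild-type had 1 sign in all 3 pairs for 2 of 4 genes in Tm1N3 tumours, against 26.6% of probe sets, and for 2 of 4 in Tm1G3 tumours, against 34.3%. In Tm1N3 pairs 1, 2 and 3 these were Dcn (-0.62, -0.34 and -0.052) and Lum (-0.96, -0.56 and -0.15). In Tm1G3 they were Pdgfra (-0.42, -0.061 and -0.73) and Cxcl12 (0.44, 0.81 and 0.55). The pairing was taken from these same arrays and is not stated in the labels, so these signs carry no test. Averaged over lines the knockout minus wild-type difference was -0.31 ± 0.47 (SE) for Dcn, -0.28 ± 0.41 for Lum, -0.21 ± 0.37 for Pdgfra and 0.27 ± 0.22 for Cxcl12 (limma adjusted p from 0.791 to 0.915). Exact permutation p within lines ran from 0.33 to 0.585. Leaving out 1 array moved the Dcn difference to between -0.67 (without KO_Tm1N3 replicate 3) and -0.019 (without WT_Tm1N3 replicate 3), and that of Lum, by the same arrays, to between -0.62 and -0.038. For Pdgfra the lowest was -0.55, with KO_Tm1N3 replicate 3 left out, and the highest 0.042, with KO_Tm1N3 replicate 1 left out. For Cxcl12 they were 0.14 and 0.43, with the replicate 1 array of Tm1G3 left out in knockout and in wild-type hosts. The other Cxcl12 probe set had the opposite sign, -0.69 ± 0.48 (limma adjusted p = 0.773). In Tm1G3 tumours the probe sets of Cxcl12 pointed apart, 0.60 ± 0.31 at the brightest and -0.70 ± 0.69 at the other, and neither passed. The interaction of line and host passed for 0 of 1246 probe sets, 0%, in limma, with 35 (2.81%) and 0 of the 4 members at an unadjusted p under 0.05. For the members it ran from -0.67 ± 0.44 for Cxcl12 to 0.38 ± 0.75 for Pdgfra.

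**Figure D2:**
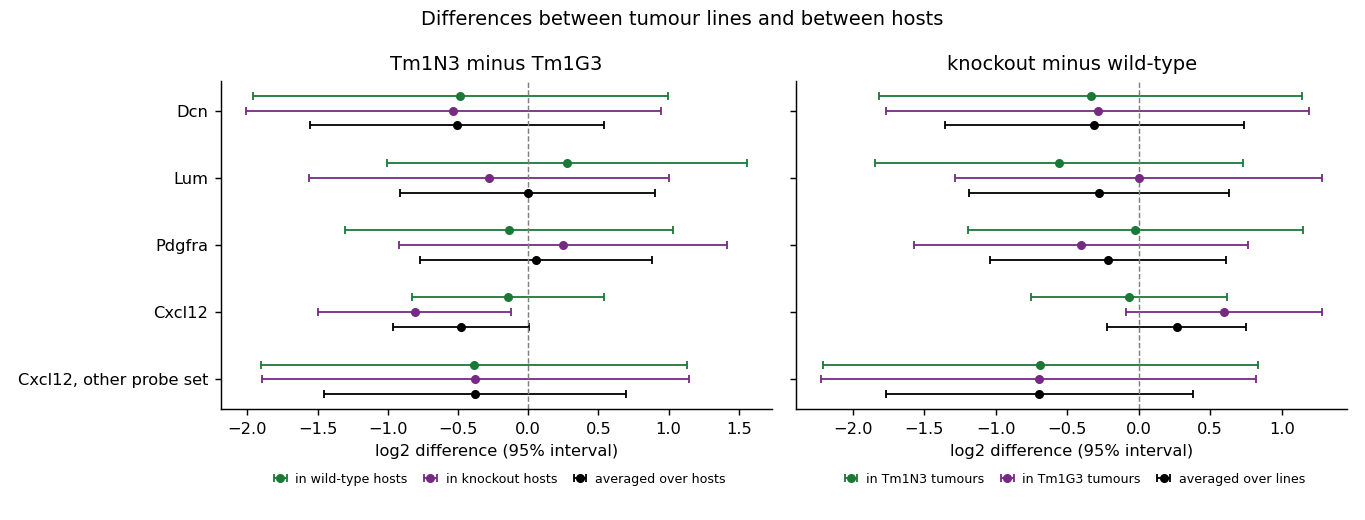
Log2 differences with 95% intervals from limma (12 arrays, 4 groups of 3), Tm1N3 minus Tm1G3 on the left and knockout minus wild-type on the right, for the 4 genes and the other Cxcl12 probe set. The interval of Cxcl12 in knockout hosts, -1.49 to -0.12, is the one that leaves out 0, and it did not pass after adjustment.

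Although group means did not separate, Dcn, Lum and Pdgfra rose and fell together from array to array. Over the 12 arrays Dcn and Lum correlated with r = 0.89 and rho = 0.94 (permutation p = 5.0e-05 and 4.0e-05; adjusted over 6 pairs 0.00015 and 0.00024). For Dcn and Pdgfra r was 0.88 and rho 0.90 (permutation p = 2.0e-05 and 0.00019; adjusted 0.00012 and 0.00057). Lum and Pdgfra gave r = 0.86 and rho = 0.85 (permutation p = 0.00027 and 0.00089; adjusted 0.00054 and 0.00178). The points share the array, with its RNA and normalization, and same-numbered arrays of the hosts deviated together within a line, so they are not fully independent. The genes had also been chosen as markers of 1 cell type, after their levels on these arrays had been seen. The permutations moved values freely across groups. Permutation p-values of r and rho, here and below, therefore describe these arrays and are not an independent test.

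Pairs with the brightest Cxcl12 probe set did not pass. Its r was 0.43 with Dcn, 0.24 with Lum and 0.13 with Pdgfra, and rho 0.43, 0.41 and 0.21 (permutation p of r 0.158, 0.456 and 0.678, adjusted 0.238, 0.548 and 0.678; p of rho 0.169, 0.192 and 0.514, adjusted 0.231, 0.231 and 0.514). The other Cxcl12 probe set gave r = 0.91 with Dcn, 0.79 with Lum and 0.87 with Pdgfra, and rho 0.87, 0.81 and 0.80 (permutation p of r 1e-05, the smallest 100000 resamples can give, 0.00273 and 0.0002; adjusted over 4 pairs 4e-05, 0.00364 and 0.0004; p of rho 0.00039, 0.0022 and 0.00302, adjusted 0.00156, 0.00403 and 0.00403). With the brightest probe set of the same gene it gave r = 0.37 and rho = 0.58 (permutation p = 0.242 and 0.0517, as adjusted). Whether Cxcl12 follows the other 3 genes thus depends on the probe set read.

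The replicate 3 arrays of Tm1N3 were also the 2 arrays farthest from the median of Dcn. Without them r was 0.86 for Dcn and Lum, 0.87 for Dcn and Pdgfra and 0.72 for Lum and Pdgfra, and each still passed (adjusted permutation p = 0.00633, 0.00318 and 0.0397). Among the 6 Tm1N3 arrays alone r was 0.99, 0.97 and 0.94 (exact permutation p = 0.00278, 0.00972 and 0.0139; adjusted 0.0167, 0.0278 and 0.0278). Among the 6 Tm1G3 arrays it was 0.77, 0.84 and 0.49, and none passed after adjustment (exact permutation p = 0.075, 0.0347 and 0.321; adjusted 0.225, 0.208 and 0.642). By rank the lines did not differ in this way. For the same pairs rho was 0.94, 0.89 and 0.77 in Tm1N3 and 0.94, 0.83 and 0.71 in Tm1G3 tumours. None of these passed (adjusted exact permutation p = 0.1, 0.1 and 0.204 in Tm1N3, and 0.1, 0.175 and 0.272 in Tm1G3). With each group's mean taken away, which leaves only the spread inside groups, r was 0.96, 0.95 and 0.93.

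**Figure D3:**
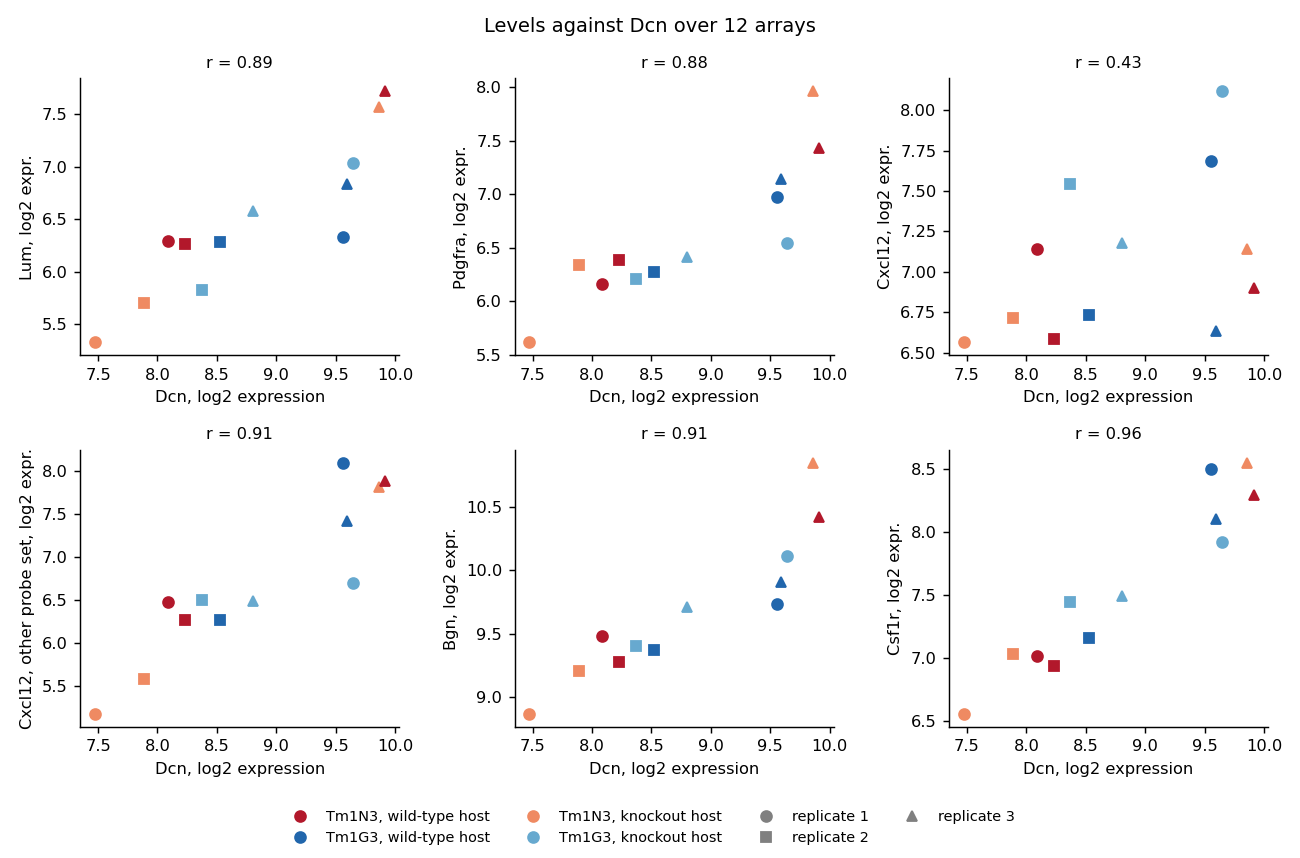
Log2 levels of Lum, Pdgfra, both Cxcl12 probe sets, Bgn and Csf1r on the vertical axes against the log2 level of Dcn on the horizontal axis, for 12 arrays; colours give line and host and symbols the replicate. The points climb with Dcn for all but the brightest Cxcl12 probe set, from r = 0.88 for Pdgfra to 0.96 for Csf1r, against 0.43 for that probe set.

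Among the other small leucine-rich proteoglycans, 2 were measured. Bgn, which encodes biglycan, the nearest relative of decorin, was the gene most like Lum of all 908 others (r = 0.95, and 0.98 inside groups). It read 9.48, 9.28 and 10.42 for Tm1N3 in wild-type hosts and 8.87, 9.21 and 10.85 in knockout hosts. Its Tm1G3 arrays lay between 9.38 and 10.11, so replicate 3 of each Tm1N3 group was above every Tm1G3 array, and 3 of the other 4 Tm1N3 arrays were below them. Fmod, which encodes the collagen-binding fibromodulin, did not follow Dcn (r = 0.37). It was at 7.00 on the replicate 1 array of Tm1G3 tumours in knockout hosts and between 4.47 and 4.91 on the other 11. None of the 4 members of this family, Dcn and Lum included, passed in any comparison, and their median difference between lines averaged over hosts was -0.21, beside -0.00 for all 909 genes.

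Of the 49 other fibroblast and matrix genes listed, 15 were measured, with a median r of 0.40 with Dcn and 0.40 with Lum. Above 0.8 were 2 of 15 with Dcn and 3 of 15 with Lum, beside 5.07% and 4.41% of the 908 other genes. The lowest r was -0.53 with Dcn and -0.38 with Lum. Among the highest, Col14a1, a collagen of fibril surfaces, followed Lum (r = 0.92), as did Cd248, the stromal surface protein endosialin (0.90), and Vcan, the proteoglycan versican, followed Pdgfra (0.92). Their spans over the 12 arrays were 3.26-fold, 2.78-fold and 3.20-fold. Averaged over hosts, Fbln5, an elastic fibre gene (0.76 ± 0.12, SE), and Has3, a hyaluronan synthase (0.21 ± 0.05), were higher and Frem1, a basement membrane gene (-0.86 ± 0.06), was lower in Tm1N3 tumours (limma adjusted p = 0.00379, 0.0300 and 2.2e-05). These are 3 of 15, beside 4.25% of all probe sets (1.28% higher, 2.97% lower), and the median of the 15 was 0.00. Frem1 was also lower within wild-type and within knockout hosts. The r with Dcn was -0.53 for Fbln5, -0.31 for Has3 and 0.40 for Frem1, beside 0.83 for Col14a1, 0.88 for Vcan and 0.73 for Cd248, so the 3 that differ between the lines were not among those most like Dcn. Col18a1, whose product gives endostatin, gave 0.49.

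Among the PDGF ligand genes, Pdgfc was the most like Pdgfra, while Pdgfb and Pdgfa were more like the brightest Cxcl12 probe set. At the other Cxcl12 probe set the highest r of a PDGF gene was 0.87, for Pdgfra itself. Pdgfc, a ligand of the alpha receptor, gave r = 0.84 with Pdgfra and 0.05 with the brightest Cxcl12 probe set. Its 3 highest arrays were the replicate 3 arrays of Tm1N3 in knockout hosts (7.11), Tm1N3 in wild-type hosts (6.87) and Tm1G3 in wild-type hosts (6.43). Pdgfb, the ligand that recruits pericytes, was the gene most like the brightest Cxcl12 probe set (r = 0.92, and 0.93 inside groups), and Pdgfa came close behind (0.87). Pdgfb gave r = 0.39 with Pdgfra. It was highest, as that probe set was, on the replicate 1 arrays of Tm1G3 tumours, 7.78 in knockout and 7.66 in wild-type hosts. Pdgfrb, the beta receptor of pericytes and fibroblasts, gave 0.68 with this Cxcl12 probe set and 0.49 with Pdgfra, and Pdgfd was dim, at the 3.53 percentile. None of the 6 measured PDGF genes passed in any comparison, and their median line difference averaged over hosts was 0.03.

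Cxcr4, the receptor of CXCL12, gave r = 0.18 with the brightest Cxcl12 probe set and 0.39 with Pdgfra. It spanned 1.93-fold, and its line difference of 0.32 ± 0.17 (SE) did not pass. The related chemokine gene Cxcl14 gave r = 0.72 with Dcn and a line difference of -0.14 ± 0.13. None of the 3 measured genes of this axis passed in any comparison.

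Decorin binds TGF-beta, and of 8 TGF-beta and other decorin-bound receptor and ligand genes 1 passed in the averaged line comparison, beside 4.25% of all probe sets. Tgfbr1, the type I receptor, was higher in Tm1N3 tumours by 0.46 ± 0.10 (SE; limma adjusted p = 0.0235) and gave r = -0.23 with Dcn. Tgfbr2, the type II receptor, and Tgfbr3, betaglycan, did not pass, at -0.13 ± 0.15 and -0.48 ± 0.20, but followed Dcn with r = 0.89 and 0.88. The ligand genes Tgfb1, Tgfb2 and Tgfb3 gave r = -0.0034, 0.22 and 0.19 with Dcn, and Met, a receptor that decorin binds, gave -0.06. Egfr, another such receptor, named after its value was seen, gave 0.90 with Pdgfra.

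Enzymes that build the sugar chains of decorin and lumican mostly had a low r with the core protein genes, as did most of the 908 other genes. Of 18 measured genes of chondroitin and dermatan sulfate synthesis 1, Chst11, a chondroitin 4-O-sulfotransferase, had an r with Dcn above 0.8 (0.86). The median r of the 18 was 0.05, beside -0.09 for the 908 other genes. Chst11 is named after its value was seen. The brightest of the list, Chsy3, Ust, Chpf and Chsy1, gave -0.16, -0.39, -0.14 and 0.35. Beside this, 5.07% of the 908 other genes had an r above 0.8 with Dcn. None of the 18 passed in any comparison. Of 12 genes of keratan sulfate synthesis none had an r above 0.8 with Lum, beside 4.41% of the 908 other genes. The highest was B4galt1, a galactosyltransferase (0.66). In the averaged line comparison B4galt4, of the same enzyme family as B4galt1 (-0.57 ± 0.11, SE), and St3gal3, a sialyltransferase (-0.41 ± 0.09), were lower in Tm1N3 tumours (limma adjusted p = 0.0130 and 0.0235), 2 of 12 beside 4.25% of all probe sets.

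The gene most like Dcn was the macrophage marker Csf1r. Among the 908 other genes Lum ranked 16 and Pdgfra 21 by r with Dcn, and the leading 5, of which Csf1r alone is on a marker list used here, were Csf1r (0.96), the receptor for the macrophage growth factor CSF-1, Clec4n (0.94), the lectin receptor dectin-2 of myeloid cells, Ugt1a6b (0.94), Ccr2 (0.94), a chemokine receptor of monocytes, and Csf2rb2 (0.93). Csf1r read 7.01, 6.93 and 8.30 for Tm1N3 in wild-type hosts and 6.55, 7.03 and 8.55 in knockout hosts. In Tm1G3 tumours it read 8.50, 7.16 and 8.10 in wild-type hosts and 7.92, 7.44 and 7.49 in knockout hosts. High and low arrays were largely those of Dcn.

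Of the 5 macrophage markers measured, 4 had an r above 0.8 with Dcn, beside 5.07% of the 908 other genes. These 4 lay between 0.84 for Adgre1 and 0.96 for Csf1r, and Clec10a gave 0.71. On the replicate 3 array of Tm1N3 all 5 were higher than on the other arrays of the group, in wild-type hosts by a median of 1.04 and in knockout hosts by 1.70. The mean level of the list ran from 6.78 to 7.78 in Tm1N3 and from 6.87 to 7.70 in Tm1G3 tumours of wild-type hosts, and from 6.27 to 7.98 and from 7.03 to 7.42 in those of knockout hosts. The same gap for Dcn was 1.75 in wild-type and 2.18 in knockout hosts, and over all named genes its median was -0.02 and -0.05. Of the 49 other fibroblast and matrix genes listed, 15 were measured, so their median gap covers only part of the list. It was 0.16 in wild-type and 0.13 in knockout hosts. Replicate 3 was the highest of its group for 10 and 8 of these 15, beside 296 and 255 of all 909 genes. Col14a1, Vcan and Cd248 were among the 10 and among the 8. In Tm1N3 tumours of knockout hosts Col14a1 read 8.15 on replicate 3, against 6.45 and 6.76. Fbln5 went the other way there, at 5.23 against 5.68 and 5.89. The dimmest of the 5 macrophage markers, Adgre1, stood at the 58.5 percentile of mean level, and their part in the fibroblast gene levels was not tested.

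The marker lists of other cell types had a lower median r with Dcn. Of 5 endothelial markers the median r was 0.54, with 0.72 for Cd34, which some fibroblasts also carry, 0.59 for Pecam1 and 0.54 for Icam2. Of 4 pericyte markers it was 0.30, of 4 neutrophil markers 0.52 and of 5 T and NK cell markers 0.31. In the last list Klrd1, an NK cell receptor gene named after its value was seen, gave 0.87. Kit and Mcam gave 0.26 and -0.08. Of these lists, Mcam was higher in Tm1N3 tumours averaged over hosts (0.66 ± 0.15, SE), and Kit (-0.99 ± 0.15), Icam2 (-0.40 ± 0.08) and Ccl5 (-0.65 ± 0.12) were lower (limma adjusted p = 0.0336, 0.00379, 0.0215 and 0.0113). Of all probe sets, 1.28% passed as higher and 2.97% as lower in this comparison. The Kit difference was -0.44 within wild-type hosts, where it did not pass, and -1.55 within knockout hosts, where it passed.

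The brightest Cxcl12 probe set had other neighbours. After Pdgfb (0.92) came Il6st (0.88), the shared receptor chain of the interleukin-6 family, Pdgfa (0.87), the interferon gamma receptor gene Ifngr1 (0.81) and Mcoln2 (0.79), and the endothelial markers Pecam1 and Icam2 gave 0.79 and 0.77. Dcn, Lum and Pdgfra ranked 173, 307 and 367 among its 908 others. The genes most like the other Cxcl12 probe set included the macrophage markers Siglec1 (0.95) and Csf1r (0.95), Ugt1a6b (0.93) and B3galnt1 (0.93), with Dcn at rank 9. For Pdgfra they were Ccl9 (0.93), Ugt1a6b (0.93), Vcan (0.92), Bgn (0.92) and B3galnt1 (0.92), and for Lum Bgn (0.95), Galnt17 (0.93), Npl (0.92), Col14a1 (0.92) and Mrc2 (0.92). These ranks describe likeness over 12 arrays and carry no test.

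**Figure D4:**
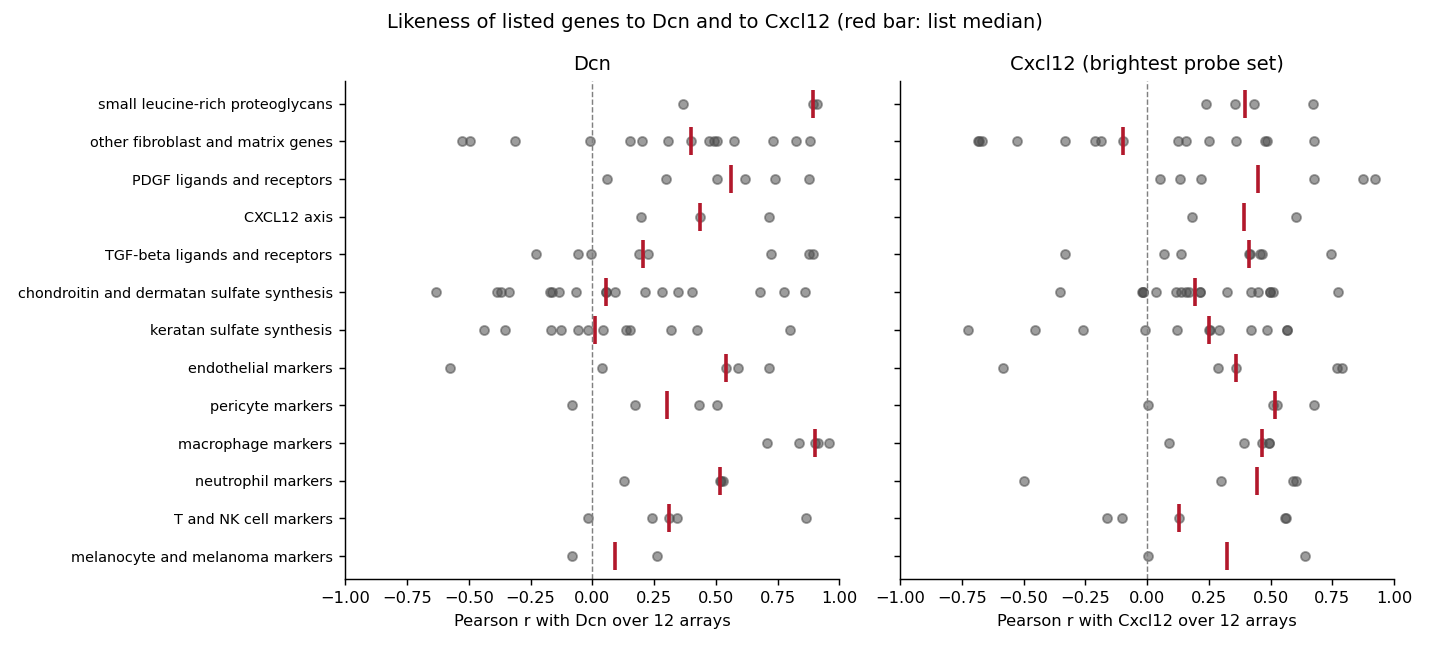
Pearson r over 12 arrays of each listed gene (points) with Dcn on the left and with the brightest Cxcl12 probe set on the right, by gene list; red bars are list medians. For Dcn the medians are highest for the macrophage markers (0.90) and the small leucine-rich proteoglycans (0.89), and for Cxcl12 the single highest gene is Pdgfb (0.92).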

How the data were processed

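Per the labels' protocols, Trizol-extracted RNA was labelled with biotin as cRNA and hybridised to Affymetrix arrays. The authors deposited log2 values, and RMA is the only step in the submitters' processing notes, with no version; they were used unchanged, and hold nothing on background. Of 1246 probe sets, 963 were named through the RefSeq accession in their name (assembly GRCm38.p6). Where a gene had several probe sets, the one with the highest mean was used.

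limma 3.58.1 in R 4.3.3 fitted the 4 group means over all 12 arrays (8 residual and 2.39 prior degrees of freedom), with Benjamini-Hochberg adjustment over 1246 probe sets and a threshold of 0.05. Errors are SD for levels and moderated SE for differences. Correlations of member pairs used 100000 permutations, or all orders for 6 arrays. The procedure was tested on simulated data.

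The members and gene lists were chosen with earlier results of these data known. Beside members, the text names every measured small leucine-rich proteoglycan, PDGF and CXCL12 axis gene, up to 4 of the brightest of each other list, list genes past the threshold, and the 5 genes most like a member, of which 1 is not reported here. Lists of neutrophil, pericyte, mast cell and skin, fat and muscle markers were also fixed; no gene of the last was measured, and Kit was the 1 mast cell marker measured.

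Replicate numbers are shared between groups. Deviations of same-numbered arrays from their group means correlated between 0.184 and 0.752 for Tm1N3 tumours of both hosts and from 0.249 to 0.308 for Tm1G3, and were taken to pair the hosts within a line. What a replicate number marks is not stated in the labels. Each sample title also opens with a number of its own, which the labels do not explain. Within every group it rises with the replicate number, so it is highest for replicate 3. All knockout hosts have lower title numbers than all wild-type hosts, so whatever it marks cannot be told apart from host. Between the lines the lowest was 0.00808 in wild-type and -0.660 in knockout hosts, so numbers were not taken to pair lines.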

Additional observations from a re-analysis of the deposited data

How the results depend on the processing

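No alternative brought any of the 4 genes past the threshold in a line, host or interaction comparison, and the lowest limma adjusted p was 0.0679, for Dcn between lines averaged over hosts. The fixed replicate block left every estimate as it was, for example -0.51 ± 0.37 (SE) for that Dcn difference (adjusted p = 0.590; from 0.0679 to 0.896 over all alternatives). With the random replicate block within a line, where the numbers pair the hosts, the Dcn host difference was -0.31 ± 0.36 (adjusted p = 0.754; from 0.535 to 0.993), and no call changed under either block. Signs that turned belonged to differences that had not passed, and the cause was not tested. With quantile normalization repeated, the Dcn interaction became 0.0088, the Lum line difference averaged over hosts 0.082 and the correlation of Pdgfra and Cxcl12 -0.093. Centring arrays on the median gave 0.00065 for that Lum difference and 0.016 for the Lum host difference in Tm1G3 tumours. Array weights gave 0.055 for Cxcl12 between lines in wild-type hosts. The other Cxcl12 probe set gave host differences of -0.70 in Tm1G3 and -0.69 averaged, and an interaction of 0.0094. Without both Tm1N3 replicate 3 arrays, an alternative chosen after seeing the data, the line difference for Lum was -0.20 within wild-type hosts. That for Pdgfra was -0.42 within knockout hosts and -0.47 averaged, while that for Dcn grew to -1.07, -1.26 and -1.16 averaged. These shifts follow from leaving out the highest arrays of the Tm1N3 line. Among Tm1G3 tumours alone r no longer passed for Dcn and Lum (0.77), Dcn and Pdgfra (0.84) and Lum and Pdgfra (0.49), and was -0.13 for Pdgfra and Cxcl12.

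Leaving out each array in turn turned further signs. Line differences then ranged from -0.20 to 0.52 (wild-type), -0.97 to 0.16 (knockout) and -0.34 to 0.22 (averaged) for Lum, and from -0.52 to 0.12, -0.42 to 0.76 and -0.28 to 0.31 for Pdgfra. For Cxcl12 in wild-type hosts the range was -0.33 to 0.19. Host differences in Tm1N3 tumours ranged from -1.06 to 0.25 for Dcn, -0.69 to 0.49 for Pdgfra and -0.24 to 0.066 for Cxcl12. In Tm1G3 tumours that of Lum ranged from -0.28 to 0.32, and averaged over lines that of Pdgfra from -0.55 to 0.042. The interaction ranged from -0.78 to 0.54 for Dcn and -0.28 to 0.89 for Pdgfra, and r of Pdgfra and Cxcl12 from -0.036 to 0.22. The number of arrays, 3 a group, limits the precision of these differences.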

Other observations

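Within an array the Dcn level minus the Lum level lay between 1.80 and 2.29 in the 6 Tm1N3 tumours, with a median of 2.17, and between 2.23 and 3.23 in the 6 Tm1G3 tumours, with a median of 2.57, so the ranges overlap. Against Pdgfra the same difference lay between 1.55 and 2.48 in Tm1N3 and between 2.16 and 3.10 in Tm1G3 tumours. These differences were looked at after the values were seen, compare the change of one gene with that of another and not their abundance, and carry no test.

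Fmod was at 7.00 on the replicate 1 array of Tm1G3 tumours in knockout hosts, and its highest level on the other 11 arrays was 4.91. The same array held the highest level of the brightest Cxcl12 probe set, 8.12, and of Pdgfb, 7.78, while the other Cxcl12 probe set read 6.70 there.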
